A study of Mus musculus with 6 samples.

Results

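Amino acid transporters of dividing blood cells were followed in spleens of garlic-fed and control mice through the 10 genes Slc38a5, Slc43a1, Slc6a9, Slc7a5, Slc3a2, Slc1a5, Slc1a4, Slc7a1, Slc38a2 and Slc7a6. Every probe set that the array annotation assigns to 1 of these genes and to no other was kept, which gave 10 of the 18193 genes named on the array and 19 of its 45037 probe sets. A probe set is a group of short oligonucleotides that together read 1 mRNA, and its signal is the brightness of the labeled RNA bound to it. Of the 19 probe sets, 17 lay above a filter on dim signals, and all 10 genes had at least 1 of them.

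The 3 garlic-fed mice ate a diet with 4% lyophilized raw garlic powder, and the 3 control mice ate the same diet with 4% cellulose in its place. All were male C57BL/6J mice by their labels (C57BL/6JNarl in the study's methods). They were 8 weeks of age at the start by their labels, which is the upper end of the range in the study's methods. Each spleen was read on its own Affymetrix array after 15 weeks of feeding. Both diets were built on casein, cornstarch and sucrose with added L-cysteine, a base diet which both groups therefore shared. Whole spleens were used, in which a higher signal from more cells of a type and from more mRNA per cell cannot be told apart. Arrays stood apart in pancreatic RNA, with a summed signal of 12 pancreatic genes of 2212, 34110 and 2396 in the garlic-fed mice and 131500, 17280 and 62050 in the control mice, and the transporter values were therefore also computed with this signal taken into account.

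Amino acids cross the plasma membrane through carriers of the solute carrier (Slc) families. Some carriers use the sodium gradient to concentrate small neutral amino acids such as glutamine, serine and glycine. Others exchange a pooled amino acid for a large one such as leucine. Dividing blood cells need both, and erythroblasts have a further use for glycine, which is the starting substrate of heme together with succinyl-CoA, and for leucine, which is abundant in hemoglobin.

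The genes Slc38a5 and Slc43a1 differed most between the diets, and the stretches before their start sites are shown for this reason. The 250 bases before the RefSeq start are given 5′ to 3′ on the gene's strand in build GRCm38.p6, at chrX:8271131-8271380 (plus strand) for Slc38a5 and chr2:84840073-84840322 (plus strand) for Slc43a1. Capitals mark the E-box CACGTG, the sequence bound by Myc and Usf factors.
Slc38a5: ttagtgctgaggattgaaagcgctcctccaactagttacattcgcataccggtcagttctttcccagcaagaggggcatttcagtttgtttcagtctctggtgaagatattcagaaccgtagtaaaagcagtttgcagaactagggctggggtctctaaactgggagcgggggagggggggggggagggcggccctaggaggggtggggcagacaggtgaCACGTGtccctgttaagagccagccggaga
Slc43a1: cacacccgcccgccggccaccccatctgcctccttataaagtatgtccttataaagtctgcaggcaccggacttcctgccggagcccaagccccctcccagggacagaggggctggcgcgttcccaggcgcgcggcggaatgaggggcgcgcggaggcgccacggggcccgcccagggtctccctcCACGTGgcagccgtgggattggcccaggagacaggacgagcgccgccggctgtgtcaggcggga

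RefSeq promoter windows, from 250 bases before to 50 bases after a start, were given for 8 of the 10 genes (all but Slc7a5 and Slc1a5), 12 windows in all. They were searched on both strands for the E-box, for the GATA motif (GATA with A or T before it and A or G after it), for the CACCC-type motif CCNCNCCC and for TGATGNAA, a core of the amino acid response element. The E-box was added after the sequences had been seen. It occurred in the windows of Slc38a5 and Slc43a1 and in none of the other 6 genes, and in 7.15% of all 32851 windows of this length. The only GATA match among the members began at position 15 counted from the Slc38a5 start, within gggcgggAGATAGggactga (chrX:8271388-8271407, plus strand, motif in capitals), and 29.8% of all windows held such a match. The CACCC-type motif occurred in all 8 genes, beside 49.5% of all windows, and can overlap itself in runs of G. TGATGNAA occurred in the Slc1a4 window alone, beside 3.97% of all windows. A match describes the letters of the window and says nothing of whether a factor bound there.

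Slc38a5 encodes SNAT5, a sodium-coupled carrier of glutamine, serine, glycine, asparagine and histidine. Its signal was 1405, 1589 and 2019 in the garlic-fed mice, against 678.7, 958.5 and 902.8 in the control mice. All 3 garlic-fed mice lay above all 3 control mice. The difference was 1.97-fold, a log2 fold change of 0.98 with a standard error of 0.17 (unadjusted p = 0.000155 and adjusted p = 0.0558 from limma). Its adjusted p was thus above the threshold of 0.05 used for calls, while it met the study's own criterion of a fold above 1.8 with an unadjusted p under 0.05.

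Slc43a1 encodes LAT3, a sodium-independent carrier of leucine and other large neutral amino acids, known in mouse erythroid cells and zebrafish for its part in hemoglobin production. Its signal was 1240, 1226 and 2347 in the garlic-fed mice, against 586.1, 766.9 and 885.3 in the control mice. The groups did not overlap, and garlic-fed mouse 3 stood far above the other two. The difference was 2.08-fold on average (log2 fold change 1.055, standard error 0.24, unadjusted p = 0.00151, adjusted p = 0.131), so that Slc43a1 had the largest difference of the 10 genes but a wider spread than Slc38a5. Without garlic-fed mouse 3 the log2 fold change was 0.75 for Slc43a1 (adjusted p = 0.0983) and 0.83 for Slc38a5 (adjusted p = 0.0673), and neither gene then met the study's criterion. Without control mouse 1, Slc38a5 did not meet it either, with a log2 fold change of 0.83.

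Slc6a9 encodes GlyT1, a sodium- and chloride-dependent glycine transporter of the plasma membrane that mouse erythroblasts use for heme synthesis. Its brighter probe set read 1172, 1234 and 1311 in the garlic-fed mice, against 760.2, 828.1 and 948.5 in the control mice. The groups did not overlap and the garlic-fed values lay close together. The fold was 1.47, below 1.8 (log2 fold change 0.56, standard error 0.12, unadjusted p = 0.000832, adjusted p = 0.102). The second probe set of Slc6a9 read 560.2, 536 and 1114 in the garlic-fed mice, against 430.8, 483.2 and 636.8 in the control mice. Here the groups overlapped, and its log2 value was 1.13 above the control average in garlic-fed mouse 3 but only 0.14 and 0.07 in the others (log2 fold change 0.45, standard error 0.27, adjusted p = 0.597).

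**Figure D1:**
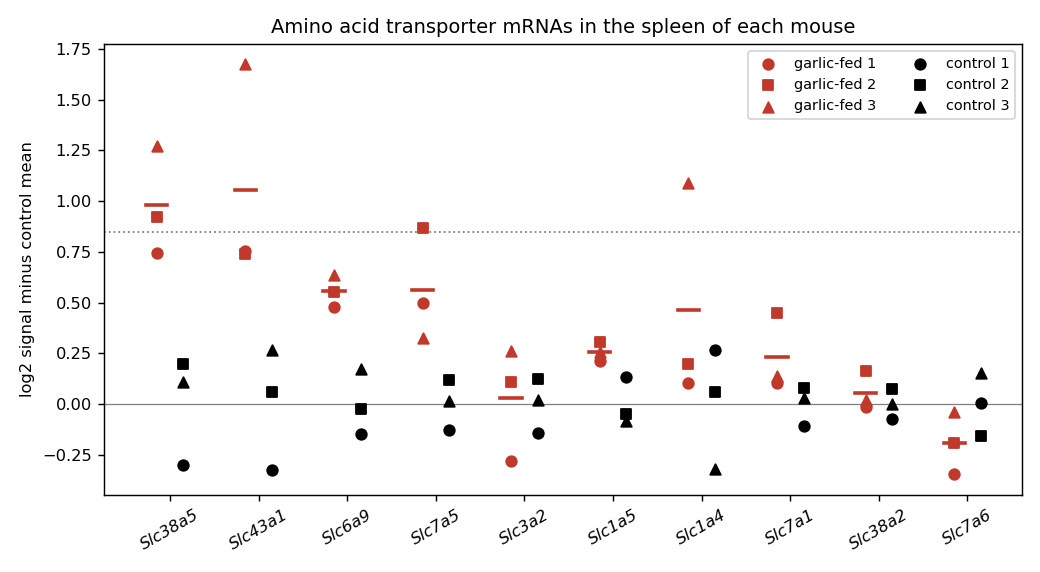
Log2 signal of each transporter gene in each mouse, relative to the control average, at the brightest probe set of the gene; red symbols are garlic-fed mice with their mean as a red bar, black symbols are control mice, and the dotted line marks 1.8-fold. Slc38a5 and Slc43a1 have means above the dotted line (0.98 and 1.055), and garlic-fed mouse 3 is highest in both. Slc3a2, Slc1a4, Slc38a2 and Slc7a6 overlap between the diets.

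The exchanger LAT1 is built from a light chain, encoded by Slc7a5, which carries leucine and other large neutral amino acids, and a heavy chain, encoded by Slc3a2 (CD98), which brings the light chain to the cell surface. Slc7a5 read 1218, 1574 and 1081 in the garlic-fed mice, against 787.4, 935.8 and 870.6 in the control mice. Again all garlic-fed mice were above all control mice, but here mouse 2 was the highest of them and mouse 3 the lowest. The difference was 1.48-fold (log2 fold change 0.56, standard error 0.15, unadjusted p = 0.00337, adjusted p = 0.178).

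Slc3a2 was bright and overlapped between the diets, with 3536, 4641 and 5156 in the garlic-fed mice and 3894, 4689 and 4361 in the control mice. The group means on the log2 scale differed by 0.03 (standard error 0.14, adjusted p = 0.962), and the sign turned in several of the alternatives tried. The change of Slc7a5 minus that of Slc3a2 within each array was 0.78, 0.76 and 0.07 on the log2 scale in the garlic-fed mice, against 0.01, -0.01 and -0.01 in the control mice. These differences did not overlap, and garlic-fed mouse 3 lay close to the control mice. Their group means differed by 0.54, with p = 0.1 in an exact two-sided permutation test, which is the smallest p that 3 mice against 3 can give. This pair was chosen after its values had been seen.

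A further partner of the CD98 heavy chain is Slc7a6, which encodes y+LAT2, an exchanger of cationic for neutral amino acids. It read 397, 441.4 and 491.8 in the garlic-fed mice, against 506.9, 452.5 and 561.3 in the control mice. Slc7a6 was the only one of the 10 genes with a negative log2 fold change, -0.19 (standard error 0.15, adjusted p = 0.690), and the groups overlapped. Its second probe set gave -0.22 (standard error 0.17, adjusted p = 0.696).

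The pair Slc1a5 and Slc1a4 encode ASCT2 and ASCT1, sodium-dependent exchangers of alanine, serine and cysteine, of which ASCT2 also takes up glutamine. Slc1a5 read 2250, 2399 and 2314 in the garlic-fed mice, against 2127, 1875 and 1832 in the control mice. The groups did not overlap, with a small difference of 1.20-fold (log2 fold change 0.26, standard error 0.10, unadjusted p = 0.0222, adjusted p = 0.349). A dimmer probe set of Slc1a5 likewise read higher in all garlic-fed mice, at 317.2, 268.2 and 279.5, against 231.5, 261.5 and 249.6 in the control mice (log2 fold change 0.22, standard error 0.16, adjusted p = 0.673).

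Slc1a4 was dim at each of its 3 probe sets. The brightest read 76, 81 and 150.5 in the garlic-fed mice, against 84.9, 73.6 and 56.5 in the control mice. The groups overlapped and garlic-fed mouse 3 stood apart (log2 fold change 0.46, standard error 0.34, adjusted p = 0.686), and without that mouse the log2 fold change was 0.15. The second probe set read 20.1, 29.8 and 56.7 in the garlic-fed mice, against 56.8, 33.7 and 67.6 in the control mice, and the third was under the floor of 23.5 on all 6 arrays. Neither was tested, and these data give no firm level of Slc1a4 in the spleen.

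Slc7a1 encodes CAT1, the carrier of arginine and lysine. Its brightest probe set read 2215, 2817 and 2272 in the garlic-fed mice, against 1914, 2174 and 2107 in the control mice. All garlic-fed mice were above all control mice, by a margin that was narrow for mouse 1 (log2 fold change 0.23, standard error 0.11, unadjusted p = 0.0696, adjusted p = 0.498). The value was 0.12 without garlic-fed mouse 2, 0.07 without both that mouse and control mouse 1, and 0.01 when the probe sets of Slc7a1 were averaged. The other 2 probe sets of Slc7a1 gave log2 fold changes of 0.15 and, at a dim signal of 61.1 to 88.3 in the garlic-fed mice and 70 to 110.3 in the control mice, of -0.36 (adjusted p = 0.672 and 0.734). Probe sets of this gene thus differed in sign, and none passed.

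Slc38a2 encodes SNAT2, a sodium-coupled carrier of small neutral amino acids whose mRNA is known to be induced when amino acids are scarce. Its 3 probe sets overlapped between the diets. The brightest read 5056, 5712 and 5183 in the garlic-fed mice, against 4863, 5380 and 5104 in the control mice (log2 fold change 0.05, standard error 0.08, adjusted p = 0.869). The others gave 0.10 and 0.08 (adjusted p = 0.835 and 0.951).

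**Figure D2:**
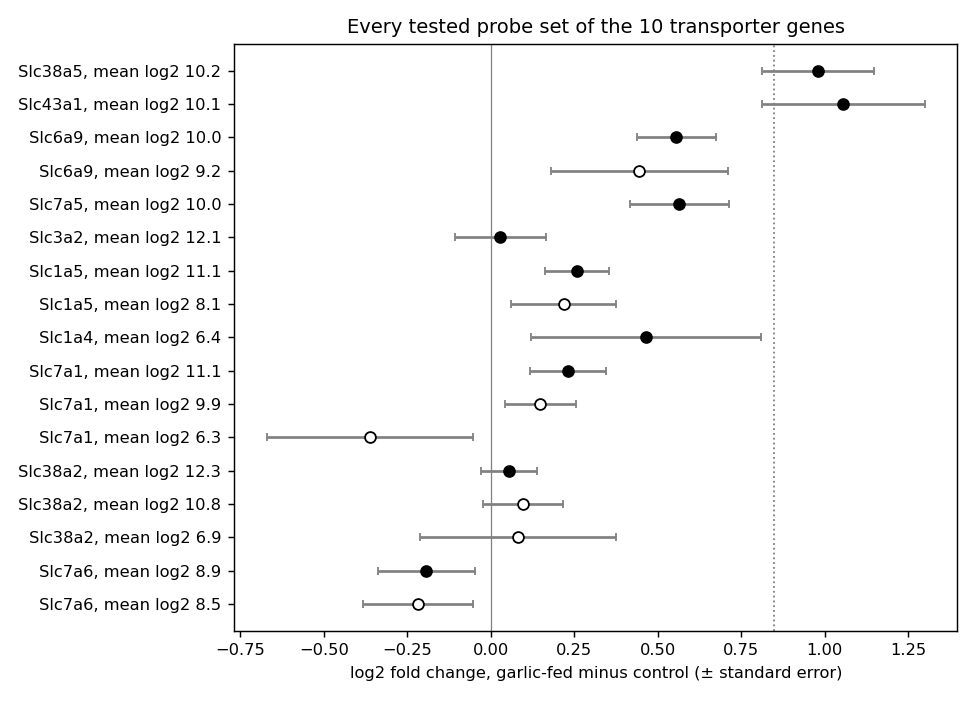
Log2 fold change, garlic-fed minus control, of the 17 tested probe sets of the 10 genes, each labeled with its gene and mean log2 signal; filled circles are the brightest probe set of a gene, open circles its other probe sets, bars are standard errors and the dotted line marks 1.8-fold. Only the probe sets of Slc38a5 and Slc43a1 lie past the dotted line, and the 3 probe sets of Slc7a1 fall on both sides of 0.

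Counted by the brightest probe set of each gene, none of the 10 genes passed the adjusted threshold of limma in either direction. Over all 12262 genes tested, 0.343% were higher past it. By the methods' one-way ANOVA none of the 10 passed after adjustment, but neither did any of the 27022 probe sets tested. At an unadjusted p under 0.05, 5 of the 10 were higher (Slc38a5, Slc43a1, Slc6a9, Slc7a5 and Slc1a5) and none was lower, beside 6.89% and 6.24% of all genes. Slc38a5 and Slc43a1 alone met the study's criterion, as did 1.08% of all genes in this direction. In 6 of the 10, the 5 above and Slc7a1, every garlic-fed mouse was above every control mouse, and in none was every garlic-fed mouse below. Over all genes these shares were 9.13% and 10.7%. The 10 genes were chosen with earlier results of these data known, so the counts beside the shares are a description only. The median log2 fold change was 0.36 over the 10 genes and -0.03 over all genes tested. Per mouse, the median of the 10 genes relative to the control mean was 0.16, 0.38 and 0.29 in the garlic-fed mice and -0.12, 0.07 and 0.03 in the control mice.

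Other carriers of amino acids were counted from a list of 38 genes, of which 36 had a probe set named and 23 were bright enough to be tested. Of these 23, 1 rose past the adjusted threshold, none fell, and the median log2 fold change was -0.02, with 10 positive and 13 negative. The gene that rose was Slc25a38, which encodes the carrier that brings glycine into mitochondria for heme synthesis. Slc25a38 and Slc16a10 were the only carriers of the Slc25 and Slc16 families on the list. The list was chosen with earlier results of these data known, so its counts describe the genes chosen and are no survey of carriers. Slc25a38 read 1163, 1338 and 1394 in the garlic-fed mice, against 731.6, 817.3 and 801.8 in the control mice (1.65-fold, log2 fold change 0.73, standard error 0.12, adjusted p = 0.0427). Every garlic-fed mouse was above every control mouse for Slc25a38, as at the brighter but not the second probe set of Slc6a9, the glycine carrier of the plasma membrane. The call of Slc25a38 held under 8 of 18 alternatives. Its adjusted p was 0.202, 0.169 and 0.0944 without control mouse 1, 2 and 3, and 0.123 and 0.057 without garlic-fed mouse 2 and 3. With control mouse 1 or control mouse 2 left out, none of the 27022 probe sets tested passed.

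The only gene of that list that met the study's criterion was Slc16a10, named after its value had been seen. It encodes TAT1, a carrier of aromatic amino acids. Slc16a10 read 1171, 1506 and 1922 in the garlic-fed mice, against 559.2, 725.8 and 808.7 in the control mice (2.18-fold, log2 fold change 1.12, standard error 0.19, adjusted p = 0.0558). With the probe sets of Slc16a10 averaged, the log2 fold change was 0.77 (adjusted p = 0.0466), which is below 1.8-fold. At the other end, and also named after its value had been seen, Slc7a11, the cystine and glutamate exchanger that also binds the CD98 heavy chain, had the most negative value of the list, with 119.2, 139.8 and 151.9 in the garlic-fed mice and 252.4, 254.7 and 146.3 in the control mice (log2 fold change -0.63, standard error 0.25, adjusted p = 0.397). Slc7a11 is dim and its groups overlap.

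Genes that sense amino acids for the growth kinase mTORC1, and genes of the amino acid response, which is switched on when amino acids run short, were counted beside the carriers. Of 31 mTORC1 sensing genes tested none passed in either direction, and the median log2 fold change was -0.03. At an unadjusted p under 0.05 the counts were 2 in each direction, beside 6.89% of all genes higher and 6.24% lower. The brightest genes of the list, Lamtor1 of the lysosomal anchor and Rheb, the activator of mTORC1, gave -0.11 (standard error 0.09, adjusted p = 0.723) and -0.12 (standard error 0.13, adjusted p = 0.803) on the log2 scale. Of 28 amino acid response genes tested none passed either, and the median was 0.04. At an unadjusted p under 0.05 there were 3 with a positive and 4 with a negative value, beside the same shares of all genes. Atf4, the transcription factor of this response, read 4584, 4912 and 5312 in the garlic-fed mice, against 4310, 3978 and 4187 in the control mice (log2 fold change 0.24, standard error 0.09, adjusted p = 0.312). Ddit4, an inhibitor of mTORC1 signaling, overlapped between the diets (0.40, standard error 0.25, adjusted p = 0.619), and its value was 0.09 without control mouse 1 and 0.74 without control mouse 3.

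**Figure D3:**
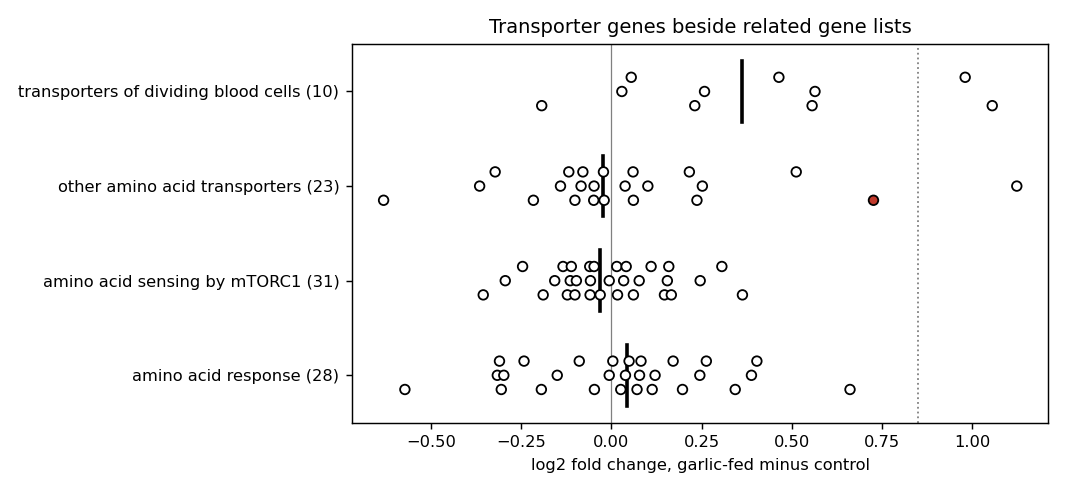
Log2 fold change, garlic-fed minus control, of the tested genes of 4 lists, with the number of genes in brackets; each circle is a gene, red marks an adjusted p under 0.05, the vertical bar is the median of the list and the dotted line marks 1.8-fold. The median of the 10 transporters is 0.36, those of the other lists lie between -0.03 and 0.04, and the single red circle is Slc25a38.

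The 5 genes whose log2 signals over the 6 arrays, each centred on its own mean, lay nearest to those of Slc43a1 were Fbxo30, Nxpe2, Ccne2 (cyclin E2), Rhag (the Rh-associated glycoprotein of red cells) and Hemgn (hemogen, a nuclear protein of blood precursors). Their root mean square difference from Slc43a1 was 0.095 to 0.11 on the log2 scale. The 5 were picked for this likeness, so a shared peak in garlic-fed mouse 3 follows from the choice. Fbxo30, the nearest, read 974.6, 1149 and 2078 in the garlic-fed mice, against 513.2, 711.7 and 850.3 in the control mice. Hemgn, the farthest of the 5, read 8455, 8792 and 13370 in the garlic-fed mice, against 4209, 5243 and 6032 in the control mice.

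Marker lists of the cell types in the spleen were read beside the transporters. Of 10 markers of erythroid precursors tested, all had a positive log2 fold change, with a median of 0.80, and Ermap, a red cell surface protein, and Tfrc, the transferrin receptor, passed the adjusted threshold (log2 fold change 1.27 and 1.01, adjusted p = 0.0139 and 0.0186). Neither passed without control mouse 1 (adjusted p = 0.0647 and 0.0846) or without control mouse 2 (0.0630 and 0.0798). With either of these mice left out, none of the 27022 probe sets tested passed. With its probe sets averaged, Tfrc gave 0.87 and did not pass (standard error 0.31, adjusted p = 0.263). The summed signal of the list was 57180 to 80030 in the garlic-fed mice and 37440 to 47250 in the control mice, without overlap. The mean log2 signal of this list relative to the control mean was 0.56, 0.56 and 1.01 in the garlic-fed mice and -0.22, -0.08 and 0.30 in the control mice. Among its brightest, Slc4a1, the anion exchanger of red cells, gave 0.46 in log2 units, with a standard error of 0.10 and an adjusted p of 0.107, and Alas2, which condenses glycine with succinyl-CoA, gave 0.20 (standard error 0.15, adjusted p = 0.683). Of 13 markers of dividing cells, all were positive with a median of 0.48, and Mki67, a protein of proliferating cells, passed (log2 fold change 0.66, standard error 0.09, adjusted p = 0.0281), but not without control mouse 1, 2 or 3 (0.155, 0.141 and 0.0628) or garlic-fed mouse 2 (0.0712). Pcna, the sliding clamp of DNA replication, gave 0.32 (adjusted p = 0.147). The list of dividing cells stood at 0.25, 0.43 and 0.70 in the garlic-fed mice and -0.14, 0.04 and 0.10 in the control mice.

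Slc43a1 and Slc38a5 had their highest values in garlic-fed mouse 3 and their lowest in control mouse 1, and the same mice held the extremes of the erythroid, dividing cell and granulocyte precursor lists. Control mouse 1 also had the highest summed pancreatic signal of all mice, 131500. The list of 5 granulocyte precursor markers stood at 0.77, 0.64 and 0.95 in the garlic-fed mice and -0.34, 0.15 and 0.19 in the control mice, without overlap.

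Slc7a5 was lowest of the garlic-fed mice in mouse 3 and highest in mouse 2. Markers of fat tissue had this order too, and set garlic-fed mice 1 and 2 apart. Relative to the control mean, their mean log2 signal was 1.25, 1.51 and -0.48 in garlic-fed and -0.41, 0.41 and 0.01 in control mice. It was taken over 6 genes, among them Cidec, which lay under the filter. Garlic-fed mouse 2 also had the highest summed pancreatic signal of the garlic-fed mice, 34110. The ratio of the 3' to the 5' probe sets of Gapdh, a measure of RNA integrity, was 0.978, 0.999 and 0.769 in the garlic-fed mice and 0.881, 0.821 and 0.801 in the control mice. The part of these cell types and of RNA quality in the transporter differences was not tested.

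**Figure D4:**
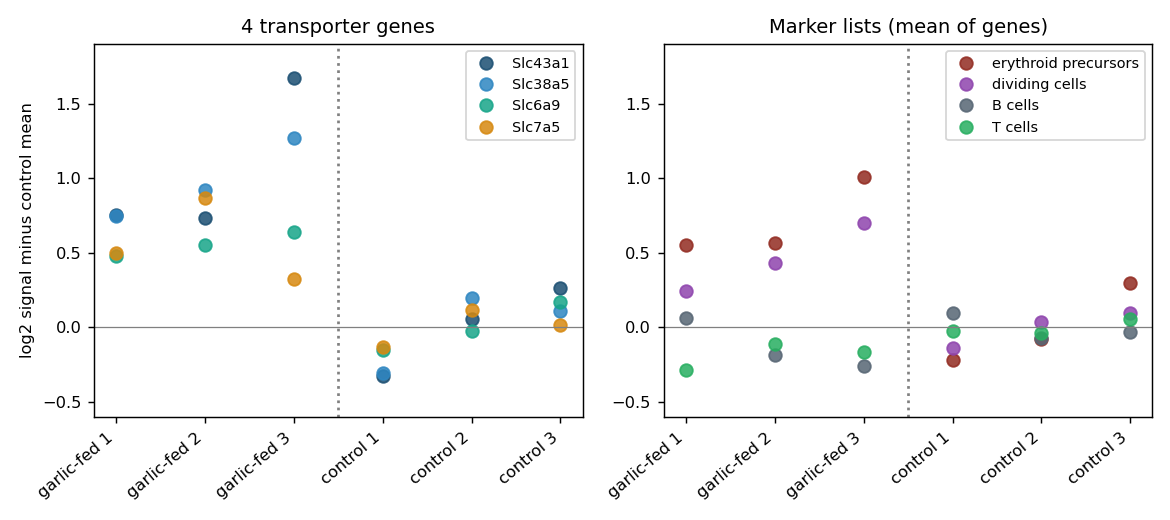
Log2 signal relative to the control mean in each mouse, garlic-fed mice on the left of the dotted line and control mice on the right, for 4 transporter genes (left panel) and for the mean of 4 marker lists (right panel), each circle standing for 1 mouse. Slc43a1 (1.67) and Slc38a5 (1.27) peak in garlic-fed mouse 3, as do the erythroid (1.01) and dividing cell (0.70) lists, whereas Slc7a5 peaks in garlic-fed mouse 2 (0.87).

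In the other marker lists no gene passed the adjusted threshold. By the study's criterion, 3 of the 5 granulocyte precursor markers (Prtn3, Mpo and Elane, at 2.11-fold, 1.92-fold and 1.9-fold) were higher. So were 4 of the 10 erythroid markers and 1 of the 5 fat tissue markers, beside 1.08% of all genes tested. The median log2 fold change was -0.15 for 7 B cell markers (Ms4a1 -0.04, Cd79b -0.23), -0.21 for 7 T cell markers (Cd3d -0.10, Cd3g -0.19), 0.15 for 11 red pulp macrophage markers (Csf1r 0.07, Vcam1 0.11) and 0.92 for 5 markers of granulocyte precursors (Mpo 0.94, Prtn3 1.07). For 5 fat tissue markers it was 0.67 (Car3 0.67, Lpl 0.09). All 11 red pulp macrophage markers had a positive log2 fold change. Of these, 4 were higher at an unadjusted p under 0.05 from limma, beside 6.89% of all genes tested.

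For the 12 pancreatic genes the median log2 fold change was -4.44 (Cela1 -1.79, Prss2 -3.72). With their mean as a covariate, which overlaps with the diet, the log2 fold change was 0.81 for Slc38a5 (unadjusted p = 0.00774), 0.69 for Slc43a1 (0.0628), 0.53 for Slc6a9 (0.0169) and 0.78 for Slc7a5 (0.00381). No gene then met the study's criterion among the 10. With garlic-fed mouse 2 and control mouse 1 left out, the most pancreatic array of either diet, the log2 fold changes were 0.86 for Slc38a5, 1.05 for Slc43a1, 0.48 for Slc6a9 and 0.35 for Slc7a5, the last of which moved by over 1.5 times. With 2 mice left in each group none of these passed the adjusted threshold.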

How the data were processed

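Total RNA of 3 garlic-fed and 3 control spleens was hybridized to 1 Affymetrix array each. The deposited intensity values are MAS5 signals on a linear scale, made by the authors; the MAS5 version and scaling are not given in the sources used here. The values show a mean of 500 on every array when 2% of the signals are trimmed at each end, and medians of 119.7 to 128.8 in garlic-fed and 127.9 to 132.2 in control mice. Precision is limited by the number of arrays.

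After removal of 64 control probe sets, 45037 remained, of which 34945 carried 1 gene name (932 several, 9160 none); 34741 matched RefSeq by gene identifier, and no name changed. A floor of 23.5, the 20th percentile of signals, was set before taking log2. Probe sets whose average log2 signal exceeded 6.08, the 40th percentile, numbered 27022 and were tested with limma 3.58.1 in R 4.3.3 (lmFit, eBayes with trend), garlic-fed minus control, with Benjamini-Hochberg adjustment over all of them. A gene was represented by its brightest probe set. For the criterion used in the study (fold over 1.8, p under 0.05), limma's unadjusted p was taken. Lists are described by counts and medians, without a test of the list. The procedure was tested on simulated data.

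Named are all 10 members, and of each list of related genes those past the adjusted threshold or, where none passed or met the study's criterion, the 2 brightest. Of each marker list the 2 brightest are named, and the 5 genes nearest in pattern to the member with the largest change. Outside this rule, Ermap and Tfrc are named because they passed the adjusted threshold, and Elane because it met the study's criterion. The members and lists were chosen with earlier results of these data known. Replicate numbers were not taken as pairs, since same-numbered mice did not deviate together over all tested probe sets. Alternatives were other normalizations, floors and filters, no variance trend, the methods' one-way ANOVA on the same values, a replicate block, pancreatic signal as a covariate, omission of single arrays or of the most pancreatic array of each group, and averaged probe sets. Promoter windows are RefSeq's (GRCm38.p6), and plots were made in Python 3.11.15 (matplotlib 3.10.9).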

Additional observations from a re-analysis of the deposited data

How the results depend on the processing

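The median log2 fold change of the 10 genes stayed positive, between 0.26 and 0.45, under all 18 alternatives, beside 0.36 as reported. Slc38a5, Slc43a1, Slc6a9, Slc7a5, Slc1a5, Slc1a4 and Slc7a1 kept a positive and Slc7a6 a negative sign under every alternative run (17 for Slc1a4, which the 60th percentile filter removed). Slc3a2 ranged from -0.087 to 0.185 with single arrays left out, negative without garlic-fed mouse 2 (-0.011), garlic-fed mouse 3 (-0.087) or control mouse 1 (-0.043). Without garlic-fed mouse 2 and control mouse 1, the most pancreatic arrays, Slc3a2 was -0.083 and Slc38a2 -0.034.

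None of the 10 genes passed the adjusted threshold as reported. With median centring, with a floor at the 40th percentile and with averaged probe sets 1 passed, Slc38a5 (adjusted p = 0.0366, 0.0423 and 0.0427), and its adjusted p ranged from 0.00615 to 0.485 over all alternatives. Leaving out single arrays gave 0 to 1 genes, with 1 (Slc38a5, adjusted p = 0.0457) without garlic-fed mouse 1. Genes meeting the study's criterion numbered 2 as reported, 0 with pancreatic signal as a covariate, and 0 to 2 with single arrays left out (0 without garlic-fed mouse 3, 1 without control mouse 1).

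Over all probe sets 64 passed as reported, against 151 with median centring, 11 without a filter, 36 without the 2 most pancreatic arrays, and 0 without the variance trend, with the methods' one-way ANOVA or with the covariate; single arrays left out gave 0 (without control mouse 1 or 2) to 111. By the study's criterion 249 probe sets were higher and 161 lower as reported, 349 and 121 with median centring, which moved the median of all genes to 0.05. Without a filter they were 340 and 336, with the covariate 274 and 442, and with the methods' one-way ANOVA 175 and 56.

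The replicate number as a block raised the calls to 295 probe sets and 2 of the 10 genes, Slc38a5 (adjusted p = 0.00615) and Slc43a1 (0.0101). Over all tested probe sets, same-numbered mice did not deviate together (r = 0.000642, -0.176 and 0.0781 for numbers 1, 2 and 3). Not every mouse correlated best with its own number. The block narrowed the standard error of some genes, from 0.244 to 0.144 for Slc43a1 and from 0.167 to 0.119 for Slc38a5. For others it widened, as from 0.096 to 0.101 for Slc1a5. Pairing of the mice in these genes alone was not tested. The same alternatives were run on 4 genes outside the 10 that passed, a check added after the data had been seen. A pass remained in 8 of 18 for Slc25a38, 12 for Ermap, 10 for Tfrc and 9 for Mki67, with no change of sign. Dim probe sets, such as those of Slc1a4, give little information at this signal.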
